A study of Mus musculus with 8 samples.

Results

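Antibody genes were read in B-1a cells, the self-renewing B cells of the body cavities, with and without PTIP, the product of Paxip1. The immunoglobulin V, J and C genes on the array comprised 34 probe sets of 23 genes, out of 41345 probe sets measured. A probe set was taken where every symbol in the platform annotation began with the name of an immunoglobulin heavy, kappa or lambda V, D, J or C gene, without the unrelated gene Ighmbp2. Of the 34, 29 carry 1 symbol and 5 carry several. By class they were 9 heavy chain constant, 3 heavy chain V, 2 heavy chain with both V and C symbols, 1 spanning the heavy and kappa loci, 16 kappa V, 1 kappa J, 1 with kappa V and J symbols and 1 lambda V. No probe set carried Ighd, Igha, Ighe, Ighj, Igkc, Iglj or Iglc, and Ighg3 was the only IgG gene represented.

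B-1a cells came from peritoneal lavage of mice aged 5 weeks and were sorted by flow cytometry. Mutant animals (KO) were CD19cre/+PTIPflox/flox and controls (WT in the labels) were CD19cre/+PTIP+/+. Both genotypes therefore carry the same Cre allele, which is active in B lineage cells. The labels give 29 KO and 22 control mice divided into 4 pools per genotype, each hybridised to 1 Affymetrix array, so every value is that of a pool of mice.

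An antibody gene is assembled by joining V, D and J segments in the heavy chain locus (Igh) and V and J segments in the kappa (Igk) or lambda (Igl) locus. The rearranged heavy chain V region is transcribed with Ighm to make IgM, and class switching replaces Ighm with a downstream constant gene such as Ighg3, after that gene has been transcribed in its unrearranged form. PTIP is known for its part in transcription of downstream constant genes before switching, and B-1a cells are known for a restricted set of V genes and for natural IgM and IgG3. RMA values are log2 intensities relative to the rest of the array. In a sorted population a smaller share of cells using a segment and less RNA per cell cannot be told apart.

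The libraries matched their labels at the targeted gene: both Paxip1 probe sets were lower in KO, by 2.67 and 3.24 on the log2 scale (limma, adjusted p = 0.00236 and 0.00146), without showing where either lies relative to the deleted part. B cell markers were bright in both groups (Cd79b 11.9 in each, Ms4a1 11.1 in each), and Cd5, which defines B-1a cells, stood at 7.48 ± 0.19 in KO and 7.44 ± 0.15 in control (SD, n = 4 pools each). Other members of the list of B-1a and B cell markers differed, and 5 of 10 had an unadjusted p under 0.05 in limma. Itgam (-1.68) and Zbtb32 (-1.11) were lower in KO and passed the test after adjustment. Cd9 (-0.60), Spn (-0.52) and Ctla4 (0.55) did not. The list mean ran from 8.25 to 8.33 in KO and from 8.53 to 8.69 in control. T cell markers were mostly higher in KO: 12 of 13 had positive differences, and none passed the test in limma (6 at an unadjusted p under 0.05, which 13.0% of all probe sets had). The mean of the list ran from 5.24 to 7.35 in KO and from 4.69 to 5.61 in control, so the genotypes overlapped. In both genotypes it was highest in pools 1 and 2, most of all in those of KO. All 13 had a mean above the median probe set. All 11 NK markers had positive differences (median 0.43), with 0 of 11 past the test in limma and 7 at an unadjusted p under 0.05. Their mean levels ran from 4.48 to 5.72 in KO and from 3.7 to 4.55 in control. For 12 macrophage markers they ran from 4.72 to 5.04 and from 4.65 to 5.39, with 0 of 12 past the test and 2 at an unadjusted p under 0.05. The part these cells play in the results was not tested, and each call of an antibody probe set or list gene is given below with and without KO pools 1 and 2.

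Most antibody probe sets were higher in KO, while Ighg3 and the lambda gene Iglv1 were lower. In limma with Benjamini-Hochberg adjustment over all 41345 probe sets, at an adjusted p under 0.05, 10 of the 34 passed, against 1.53% of all probe sets: 8 rose (0.605% of all did) and 2 fell (0.926% of all did). A probe set past that threshold is described as called. Of the 34, 28 had a positive difference and the median difference was 0.46 on the log2 scale, against 51.2% positive and a median of 0.00 over all probe sets (the median over all was 0.0048 unrounded). Differences ran from -2.52 for Ighg3 to 1.23 for Igkv8-30. In 19 of the 34 the 4 KO pools did not overlap the 4 control pools, 16 upward and 3 downward, against 8.86% of all probe sets. These members share sequence, so their counts are not counts of independent genes. Fewer members were called when 1 pool was left out, and fewer of all probe sets. Without KO pool 1, 2 or 4, 4 rose, while 0.788%, 0.709% and 0.825% of all were called in either direction. Without control pool 3 or 4, 5 rose, while 0.629% and 0.639% of all were called. In each of these fits 19 members rose at an unadjusted p under 0.05 in limma. With any 1 pool left out but KO pool 4 and control pool 2, 1 member fell instead of 2. Without KO pool 4 the 2 falls were Ighg3 and Igkv4-91, and Iglv1 was not called (limma, adjusted p = 0.0693). Without KO pools 1 and 2 together, 1 rose (Igkv8-30) and 1 fell (Ighg3), while 0.174% of all probe sets were called. In that fit 16 members rose and 3 fell at an unadjusted p under 0.05 in limma, against 19 and 3 in the main fit.

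**Figure D1:**
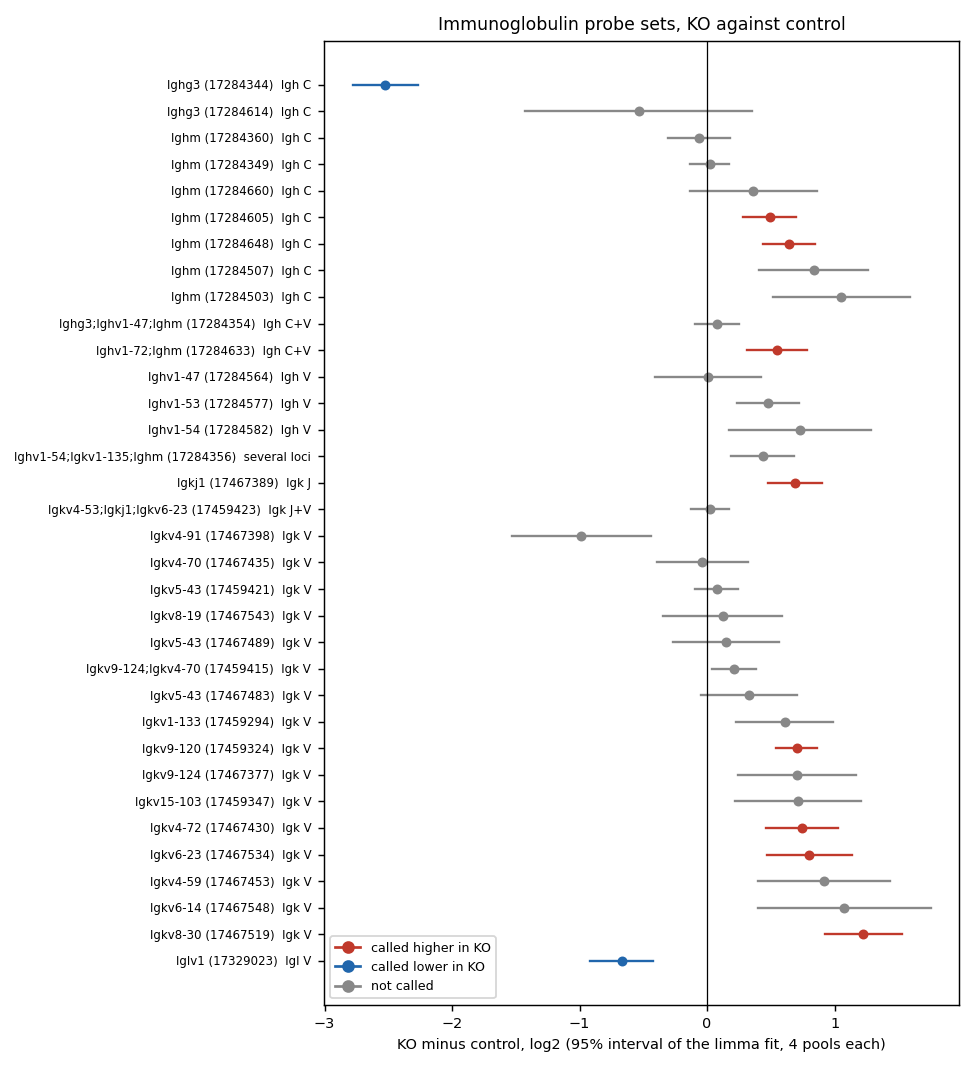
Difference between KO and control for each of the 34 immunoglobulin probe sets, on the log2 scale, with the 95% interval of the limma fit (4 pools each), grouped by class. Ighg3 (17284344) at -2.52 stands far to the left, Iglv1 at -0.67 is also blue, and the 8 red points lie between 0.49 and 1.23.

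Ighg3, the constant gene of IgG3, was 5.75-fold lower in KO. Its probe set 17284344 gave, in the order of pools 1 to 4, KO values of 6.64, 6.31, 6.68 and 6.77 and control values of 9.22, 9.02, 9.07 and 9.19. The groups were far apart, since the highest KO pool lay more than 2 log2 units below the lowest control pool. The means were 6.6 ± 0.20 and 9.12 ± 0.10 (SD, n = 4 pools each), a difference of -2.52 (SE 0.11, limma, adjusted p = 8.45e-05). This fall was called with every single pool left out, and without KO pools 1 and 2 it was -2.40 (adjusted p = 0.00129; 1.04e-06 to 0.30 over all alternatives). The 0.30 came from the fit with the plasma cell marker mean as a covariate, where the difference was -2.14.

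A second probe set annotated as Ighg3 (17284614) gave no such difference. It read 3.02, 2.92, 2.77 and 3.47 in KO and 3.25, 3.55, 4.81 and 2.71 in control, so that the groups overlapped and control pool 3 alone stood high. Its mean lay below the median of all probe sets, and its difference was -0.54 (95% interval -1.43 to 0.35, limma, adjusted p = 0.634). By number it lies after the first probe set named for a single heavy chain V gene, not beside 17284344, and the sources used here do not give which part of the locus it covers. Another, 17284354, carries the symbols Ighg3, Ighv1-47 and Ighm together; it stood at 12.21 ± 0.03 in KO and 12.13 ± 0.10 in control with overlapping pools (adjusted p = 0.748).

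Ighm, the constant gene of IgM, has 7 probe sets that went apart, 2 of them called upward. The bright pair was nearly level: 17284349 read 12.60, 12.65, 12.62 and 12.62 in KO against 12.64, 12.56, 12.58 and 12.61 in control, a difference of 0.02 (95% interval -0.13 to 0.17). The other, 17284360, read 12.92, 12.86, 13.02 and 13.01 against 12.73, 13.06, 13.12 and 13.15, a difference of -0.06 (95% interval -0.30 to 0.18). Their groups overlapped, and both sit near the top of the array's range.

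The 2 called Ighm probe sets were dimmer on the array and did not overlap between groups. Probe set 17284648 read 8.62, 8.62, 8.36 and 8.61 in KO against 7.90, 7.97, 7.94 and 7.81 in control, a rise of 0.64 (SE 0.09, limma, adjusted p = 0.0132). Probe set 17284605 read 10.39, 10.55, 10.57 and 10.48 against 9.85, 10.12, 10.12 and 9.94, a rise of 0.49 (SE 0.09, adjusted p = 0.0384). The call of 17284605 was lost when any 1 pool was left out (adjusted p up to 0.110), that of 17284648 with none; both were lost without KO pools 1 and 2. Ighm 17284503 read 6.75, 6.35, 6.37 and 7.06 against 5.49, 6.14, 5.62 and 5.08, and 17284507 read 7.98, 7.85, 8.02 and 8.03 against 6.63, 6.96, 7.54 and 7.42. Neither overlapped between groups and both had larger differences, 1.05 and 0.84, but the control pools were scattered (SD 0.44 and 0.42) and neither was called (limma, adjusted p = 0.0771 and 0.0770). Without control pool 2, 17284503 was called at 1.24 (adjusted p = 0.0486). The seventh, 17284660, differed by 0.36 (95% interval -0.13 to 0.86).

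The annotation gives these 7 probe sets 1 symbol, yet 3 of them, 17284605, 17284648 and 17284660, are numbered among or after the V segment probe sets. Also, 2 probe sets are named Igh-VS107, a V segment name. Of the 7, 5 carry numbers above the second of these (17284463), and all 7 above the first (17284314). What each one measures is therefore not settled by its symbol, and a change in them is not read here as a change in Ighm. The 2 probe sets named Igh-VS107 fall outside the naming rule; they differed by 0.63 and 0.09 and neither was called (adjusted p = 0.253 and 0.945).

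The constant probe sets were also compared after subtracting, array by array, the log2 value of the brightest Ighm probe set (17284360). That reference is among the 135 probe sets of the array with a mean above 12, of which 0 were called in limma (5 at an unadjusted p under 0.05) and whose median absolute difference was 0.053. It differed by -0.06 itself, so these shifts follow the differences above and add no independent evidence. Ighg3 (17284344) shifted by -2.46. Permuting the genotype labels exactly, in all 70 ways and two-sided, gave p = 0.0286, which is the smallest value 4 against 4 arrays can give, and 0.0457 after adjustment over the 8 probe sets compared. Of the other 7, Ighm probe sets 17284503, 17284507, 17284605 and 17284648 shifted upward by 1.11, 0.90, 0.55 and 0.70, each at the same exact p. Ighm 17284349 and 17284660 and Ighg3 17284614 shifted by 0.08, 0.42 and -0.48 and did not pass. Against the mean of all 7 Ighm probe sets the shift of Ighg3 was -3.0 (exact p = 0.0286, adjusted p = 0.114). Here 0 of 8 passed after adjustment, 2 at an unadjusted p under 0.05. That mean holds the Ighm probe sets compared with it, so their own shifts depend in part on the reference. Ighg3 stayed at the smallest exact p, and its adjusted p depends also on the p values of the other 7.

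**Figure D2:**
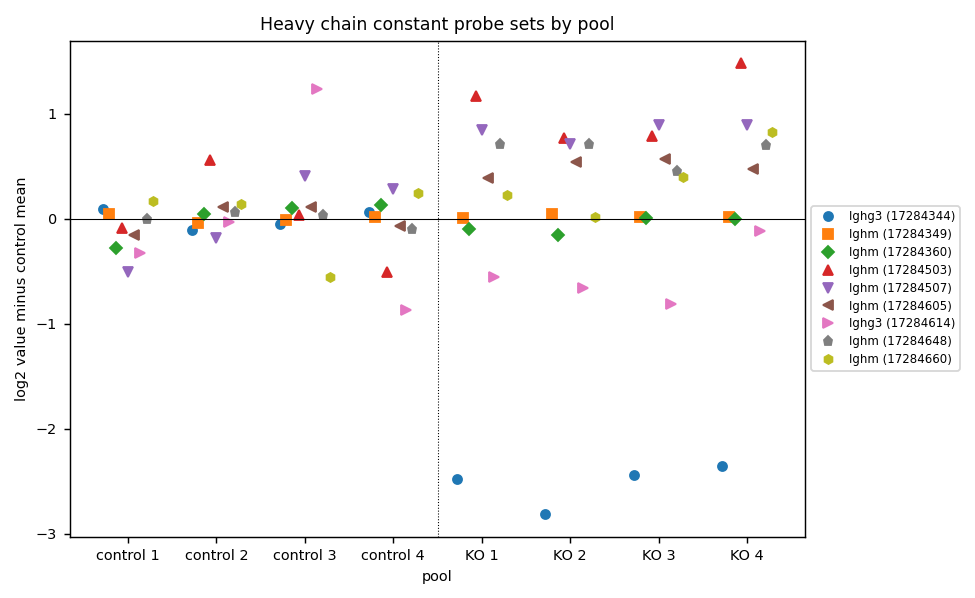
Each of the 9 heavy chain constant probe sets by pool, as its log2 value minus its own mean over the 4 control pools. Ighg3 (17284344) falls by more than 2 units in all 4 KO pools, the bright Ighm probe sets 17284349 and 17284360 stay near 0, and the dimmer Ighm probe sets lie at or above 0 in every KO pool.

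None of the 3 probe sets named for a single heavy chain V gene was called; their differences ran from 0.01 to 0.73, with 2 at an unadjusted p under 0.05 in limma. All belong to the large Ighv1 family, whose members are close in sequence. Ighv1-53 read 9.02, 9.33, 9.16 and 9.23 in KO against 8.59, 8.91, 8.77 and 8.58 in control, so that the groups did not overlap, but its difference of 0.47 was not called (limma, adjusted p = 0.0770). Ighv1-47 read from 8.07 to 8.64 in KO and from 7.81 to 8.50 in control, a difference of 0.01 (95% interval -0.41 to 0.43). Ighv1-54 was near the floor of the array, at 3.60, 3.65, 2.43 and 3.23 against 2.49, 2.35, 2.54 and 2.60; it had the widest spread in KO of all members (SD 0.56), with KO pool 3 at the control level, and its difference of 0.73 was not called (adjusted p = 0.236). Without KO pool 3 it was 1.0 and called (adjusted p = 0.0189).

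Of the 3 probe sets that join a heavy chain V symbol with Ighm, 1 was called. The one annotated to Ighv1-72 and Ighm (17284633) read 10.12, 10.26, 10.31 and 10.21 in KO against 9.49, 9.91, 9.71 and 9.61 in control, a rise of 0.55 (SE 0.10, limma, adjusted p = 0.0425). Its groups did not overlap, but the call was lost without any 1 pool but control pool 2 (adjusted p up to 0.119) and without KO pools 1 and 2. The one annotated to Ighv1-54, Igkv1-135 and Ighm (17284356) read from 12.04 to 12.32 in KO and from 11.46 to 11.85 in control, and its difference of 0.44 was not called (adjusted p = 0.108). The third, 17284354, given above with Ighg3, differed by 0.08.

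Most kappa and most heavy chain members had positive differences. Of the 18 probe sets of the kappa locus alone, 16 had a positive difference, and 5 rose and 0 fell in limma. An unadjusted p under 0.05 was found in 12 of the 18, against 13.0% of all probe sets. The median difference of the 18 was 0.65, against 0.00 over all probe sets. Of the 14 probe sets of the heavy chain locus alone, 11 had a positive difference, and the median was 0.42. By pool, the median of the kappa probe sets lay 0.49, 0.58, 0.57 and 0.65 above the control mean in KO pools 1 to 4 and between -0.04 and 0.16 in the control pools. The median of the heavy chain probe sets lay at 0.26, 0.48, 0.25 and 0.50 in KO and between -0.11 and 0.08 in control. In neither locus did the genotypes overlap, and the difference between the loci was not tested.

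**Figure D3:**
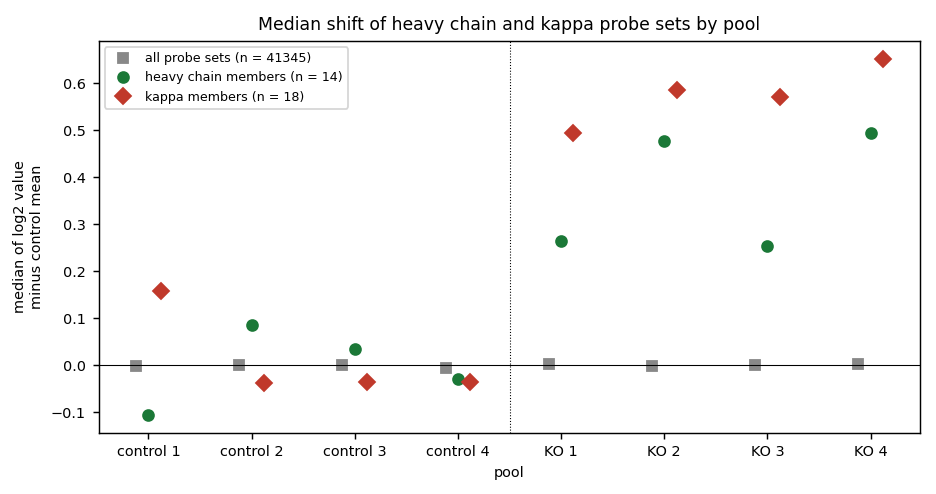
Median, per pool, of the log2 value minus the mean of the control pools, for all 41345 probe sets, the 14 heavy chain and the 18 kappa members. The median over all probe sets stays at 0 in every pool, while in the KO pools the kappa median lies between 0.49 and 0.65 and the heavy chain median between 0.25 and 0.50.

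Igkv8-30, a kappa V gene, had the largest rise of any member. It read 7.64, 8.10, 8.07 and 8.24 in KO against 6.85, 6.77, 6.65 and 6.87 in control, a rise of 1.23 (SE 0.13, limma, adjusted p = 0.00439), or 2.34-fold. Every KO pool lay above every control pool, KO pool 1 being the lowest of them. The call held with any 1 pool left out and without KO pools 1 and 2, where the adjusted p was 0.0193.

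Igkv9-120 rose with the smallest spread of the called kappa genes. It read 11.49, 11.41, 11.43 and 11.49 in KO against 10.81, 10.78, 10.70 and 10.72 in control, a rise of 0.70 (SE 0.07, limma, adjusted p = 0.00331). The difference was 0.71 without KO pools 1 and 2, where the call was narrowly missed (adjusted p = 0.0617). The call held with any 1 pool left out.

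Igkj1, the first kappa joining segment, read 9.97, 9.96, 9.82 and 10.12 in KO against 9.41, 9.16, 9.24 and 9.30 in control. The rise was 0.69 (SE 0.09, limma, adjusted p = 0.0122). It was called with any 1 pool left out but not without KO pools 1 and 2, where the difference was still 0.69 (adjusted p = 0.118). What the probes of this set cover is not known from its symbol.

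Igkv4-72 and Igkv6-23 were the other kappa rises. Igkv4-72 read 9.50, 9.61, 9.40 and 9.60 in KO against 9.12, 8.67, 8.78 and 8.57 in control, a rise of 0.74 (SE 0.13, limma, adjusted p = 0.0273). Igkv6-23 was dim throughout, at 3.82, 3.62, 3.47 and 3.79 against 2.91, 2.86, 3.2 and 2.52, a rise of 0.80 (SE 0.15, adjusted p = 0.0372). In neither did the groups overlap. Leaving out 1 pool, Igkv4-72 kept its call without KO pool 3 and without control pool 1 and lost it otherwise (adjusted p up to 0.0816). Igkv6-23 kept it without pool 3 of either genotype and lost it otherwise (adjusted p up to 0.102). Neither was called without KO pools 1 and 2.

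**Figure D4:**
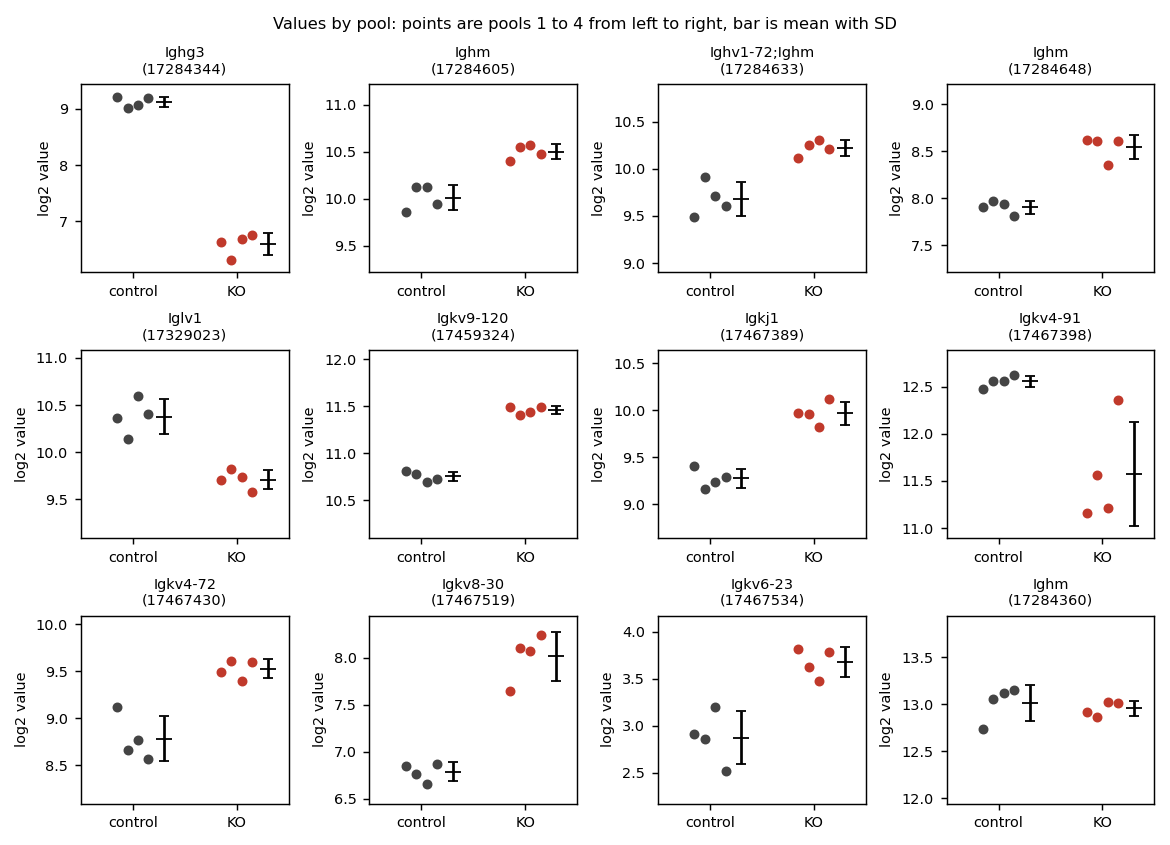
Log2 values by pool for the 10 called members, Igkv4-91 and the brightest Ighm probe set; points are pools 1 to 4 from left to right and the bar is the mean with its SD. Every panel spans at least 2 log2 units, the called members show no overlap between groups, and Igkv4-91 in KO shows pool 4 at 12.36 close to the control pools.

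Igkv4-91 had the lowest difference of the kappa members, 1 of 2 below 0. It is a light chain V gene known from phosphatidylcholine-binding antibodies of B-1a cells. Of 7 V genes listed for B-1a antibodies in general, it was the 1 gene measured under its symbol. The control pools were nearly uniform at 12.47, 12.57, 12.57 and 12.63, while the KO pools read 11.16, 11.56, 11.21 and 12.36. All KO pools lay below all control pools, but KO pool 4 lay close to the lowest of them while the other 3 KO pools lay far below. The SD was 0.55 in KO and 0.06 in control, and the difference of -0.99 was not called (95% interval -1.53 to -0.44, limma, adjusted p = 0.0984). Without KO pool 4 it was -1.25 and called (adjusted p = 0.00666; 0.00666 to 0.898 over all alternatives). It was also called where only annotated probe sets were tested (adjusted p = 0.0348) or only 1 per gene (0.0323).

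Of the 3 other Igkv4 probe sets named for a single gene, Igkv4-72 rose, as given above. Igkv4-70 read 10.72, 10.70, 10.04 and 10.63 in KO against 10.75, 10.50, 10.46 and 10.52 in control, a difference of -0.04 (95% interval -0.40 to 0.32) with KO pool 3 alone low. Igkv4-59 read 6.45, 6.45, 6.40 and 6.53 against 6.08, 5.21, 5.90 and 4.98. Its KO pools were tight and its control pools among the most scattered (SD 0.05 and 0.53), and the difference of 0.91 was not called (limma, adjusted p = 0.107).

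The remaining kappa V genes had positive differences without a call. Igkv6-14 read 5.55, 6.0, 5.29 and 5.52 in KO against 5.45, 4.20, 4.36 and 4.04 in control; the groups overlapped only through control pool 1, and the difference was 1.08 (95% interval 0.40 to 1.75, limma, adjusted p = 0.143). Without control pool 1 it was called, at 1.39 (adjusted p = 0.0175). Igkv15-103 read 10.60, 10.83, 10.64 and 10.76 against 10.29, 9.42, 9.78 and 10.50, with a control SD of 0.49 and a difference of 0.71 (adjusted p = 0.187). For Igkv1-133 the difference was 0.61 (adjusted p = 0.141), with KO pools from 8.19 to 8.63 above control pools from 7.40 to 8.12. Igkv9-124 differed by 0.71 (adjusted p = 0.163) near the floor, from 3.79 to 4.22 against 2.91 to 3.90, and was called without control pool 4 (0.90, adjusted p = 0.0433). Igkv8-19, also near the floor, differed by 0.12 (95% interval -0.34 to 0.59), while its family member Igkv8-30 rose.

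Igkv5-43 has 3 probe sets, none called. The brightest, 17459421, read from 12.97 to 13.15 in KO and from 12.97 to 13.04 in control, a difference of 0.08 (limma, adjusted p = 0.745). Probe sets 17467483 and 17467489 differed by 0.33 and 0.15 (adjusted p = 0.457 and 0.804), with overlapping groups. The probe set annotated to Igkv4-53, Igkj1 and Igkv6-23 (17459423) was as bright and as level, at 12.97 ± 0.02 in KO and 12.95 ± 0.03 in control, while the separate Igkj1 and Igkv6-23 probe sets rose. The probe set shared by Igkv9-124 and Igkv4-70 (17459415) read 13.11, 13.06, 13.17 and 13.07 against 12.90, 12.86, 12.80 and 13.01, a difference of 0.21 (adjusted p = 0.275) with groups that did not overlap.

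The brightest members differed little, except Igkv4-91. The 7 members with a mean above 12 held 0 calls in limma, 2 with an unadjusted p under 0.05, and a median difference of 0.02. The 135 probe sets of the array above 12 also held 0 calls, 5 with an unadjusted p under 0.05, and a median of -0.05. Among those 135, Igkv4-91 had the lowest difference (-0.99) and the probe set of Igkv9-124 and Igkv4-70 the highest (0.21). What brightness has to do with these differences was not tested.

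Iglv1, the V gene of the lambda 1 light chain and the only lambda member, fell. Its KO pools, at 9.70, 9.82, 9.73 and 9.57, all lay below its control pools, at 10.36, 10.14, 10.60 and 10.40. The fall was 0.67 on the log2 scale (SE 0.11, limma, adjusted p = 0.0242), opposite to the 5 kappa rises. Its call was lost without any 1 pool but control pool 2 (adjusted p up to 0.0749) and without KO pools 1 and 2, where the difference was -0.72 (adjusted p = 0.137).

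The spread between pools also varied among members. Their median SD was 0.13 in KO and 0.18 in control, against 0.17 and 0.16 over all probe sets. The widest in KO were Ighv1-54 (0.56), Igkv4-91 (0.55) and Igkv8-19 (0.39). In control they were Ighg3 17284614 (0.89), Igkv6-14 (0.64) and Igkv4-59 (0.53). Of these 6, Igkv4-91 alone has a mean in the top 1% of the array.

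Genes that work with antibody genes were read from lists of their function. Of 14 measured partners of the B cell receptor and of secreted antibody, 2 rose and 1 fell, against 0.605% and 0.926% of all probe sets. Jchain, which joins IgM and IgA into polymers, read 5.44, 5.13, 5.72 and 5.75 in KO against 4.04, 3.98, 3.85 and 4.21 in control, a rise of 1.49 (SE 0.15, limma, adjusted p = 0.00331). Vpreb3, a chaperone of immunoglobulin assembly, rose by 1.82 and Fcgr2b, the inhibitory IgG receptor of B cells, fell, by 1.6 (adjusted p = 0.00298 and 0.00542). The signalling chains Cd79a and Cd79b, which carry surface immunoglobulin, differed by -0.04 and -0.01. The surrogate light chain genes Igll1, Vpreb1 and Vpreb2 stood near the median of the array or below it and differed by -0.03, 0.09 and 0.05.

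Plasma cell genes moved both ways. Of 15 measured, 2 rose and 1 fell, against 0.605% and 0.926% of all probe sets. The 15 had a median difference of 0.01 and list means from 6.47 to 6.51 in KO and from 6.33 to 6.41 in control. Jchain and Slamf7, a surface receptor of plasma and other cells, rose by 1.49 and 0.82, and Fkbp11, a secretory pathway gene, fell by 0.49 (limma, adjusted p = 0.00331, 0.00307 and 0.0442). Sdc1 (CD138), which marks plasma cells, was below the median of the array in both groups, at 3.60 ± 0.05 in KO and 3.59 ± 0.12 in control. Xbp1 and Irf4, factors of the plasma cell programme, were not called, with differences of -0.35 and -0.34. The part of plasma cells in the antibody gene differences was not tested.

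Of 29 measured genes of immunoglobulin recombination and switching, Paxip1 was the only one called, and 4 had an unadjusted p under 0.05, against 13.0% of all probe sets. Dntt, which adds bases at V, D and J joins, was dim, at 3.13 in KO and 2.66 in control (limma, adjusted p = 0.162). Trp53bp1, a break repair partner of PTIP, differed by -0.06. Of 25 measured transcription factors that act on immunoglobulin loci, 0 were called in limma, and 11 had an unadjusted p under 0.05. Among those were Pou2f2 (Oct-2), which binds the octamer of immunoglobulin promoters and differed by -0.44, and its coactivator Pou2af1, which differed by 0.23 (adjusted p = 0.0922 and 0.299). In the B-1a and B cell marker list 2 of 10 fell, Zbtb32 by 1.11 and Itgam by 1.68, against 0.926% of all probe sets. In the short follicular and marginal zone list 4 of 5 differences were positive, none of them called, and the median was 0.35. The list mean ran from 5.47 to 5.63 in KO and from 5.16 to 5.48 in control. Only the marginal zone receptor S1pr3 fell, by 0.53 from a level near the floor (limma, adjusted p = 0.05, just under the threshold before rounding). Without KO pools 1 and 2, an alternative chosen for these genes after the data were seen, Jchain, Vpreb3 and Paxip1 were still called (limma, adjusted p = 0.0106, 0.0349 and 0.0391). Slamf7, Fkbp11, Fcgr2b, Zbtb32, Itgam and S1pr3 were not (adjusted p from 0.0537 to 0.236), and all of these 9 genes kept their direction.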

How the data were processed

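RNA of 4 KO and 4 control pools of B-1a cells was measured on 8 arrays. The deposited table holds log2 values that the authors made with RMA in R 3.2.2, per the submitters' processing notes; the sources used here do not give the package, summarisation level or build, and no read depth applies to arrays. Array medians lay between 3.68 and 3.74. The platform annotation lists 25335 of the 41345 probe sets; 16010 stayed unnamed. All 23 gene identifiers of the members matched RefSeq (GRCm38.p6), which was used for names only. KO was compared with control with limma 3.58.1 in R 4.3.3 (lmFit, eBayes, two-sided, Benjamini-Hochberg over all 41345 probe sets, adjusted p under 0.05), every probe set kept without a filter on dim ones, and the fit was tested on simulated data. For the other gene lists the probe set with the highest mean stood for a gene. Constant probe sets were set against Ighm with an exact permutation test. Genes were named by rule: all constant, D and J probe sets, called V probe sets (at most 12 in each direction), the B-1a V genes of a list, the 3 widest spreads per genotype, Paxip1 and at most 4 called genes per list; the other members and the uncalled list genes were named after their values were seen. Members, lists and alternatives were chosen with earlier results of these data known. Alternatives changed probe sets tested, scaling, prior, weights, threshold, covariates, block and pools. Deviations of same-numbered KO and control pools correlated at 0.02 to 0.09, and those of other pairs at -0.10 to 0.08. Pairs within pools 1 and 2 or within pools 3 and 4 were all positive, and pairs across them all negative. The main fit has no block. With a replicate block fewer members were called (2 rises and 1 fall), and fewer of all probe sets (0.547%, against 1.53%). Errors are SDs of 4 pools or SEs of the fit.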

Additional observations from a re-analysis of the deposited data

Results flagged for a closer look

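Of 68 groups of 4 pools examined (34 members in each genotype), 5 held a pool set apart from the other 3 by more than Dixon's 95% limit on the gap over the group's range, and chance gives about 1 in 20. In KO, pool 2 was highest for Ighv1-47 at 8.64 (next 8.13), pool 3 was lowest for Ighm 17284648 at 8.36 (next 8.61), and pool 3 was lowest for Igkv4-70 at 10.04 (next 10.63). In control, pool 3 was lowest for Ighm 17284660 at 6.01 (next 6.70) and pool 4 was highest for Igkv5-43 17459421 at 13.04 (next 12.98).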

How the results depend on the processing

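The 8 rises and 2 falls were unchanged in number with array weights, repeated quantile normalization and arrays centred on their medians. They numbered 13 and 3 with annotated probe sets only, where 3.54% of all were called. Without moderation of the variance they numbered 4 and 1, where 0.593% of all were called, against 1.53% in the main fit. With mean T cell marker level as covariate they were 2 and 1, where 0.31% of all were called. In that fit 17 and 3 members had an unadjusted p under 0.05 in limma. At an adjusted p under 0.01 they were also 2 and 1, where 0.319% of all were called. Without KO pools 1 and 2 they were 1 and 1, where 0.174% of all were called. With the plasma cell marker mean as a covariate 0 and 0 were called in limma (6 and 2 at an unadjusted p under 0.05), and 0 of all probe sets; that mean itself did not overlap between genotypes. Leaving out 1 pool gave 4 to 7 rises and 1 to 2 falls, where 0.629% to 1.19% of all were called. Pool numbers paired the samples at most weakly, with 2 of 4 KO pools correlating best with their own number. With a replicate block 2 rose and 1 fell, where 0.547% of all were called. Against the mean of all Ighm probe sets, and with any 1 pool left out, 0 of 8 constant probe sets passed, 2 and 0 of them at an unadjusted p under 0.05. That mean holds the Ighm probe sets compared with it, and without 1 pool the exact test cannot go below 0.0571. The direction turned with the plasma cell covariate for Ighv1-47 (-0.93), Ighv1-53 (-0.01, unrounded -0.0065) and Igkv5-43 17467483 and 17467489 (-0.48 and -0.32), and against the mean Ighm for Ighm 17284349 (-0.46) and 17284660 (-0.11), none of them called. By less than the larger SD of the pools, the sign also turned for Ighm 17284360 (0.09 with the plasma cell covariate, 0.06 with that of T cells), Ighv1-47, Igkv4-70 and Igkv8-19 under some alternatives. The cause was not tested. Igkc as a reference was not run, since no probe set used here carries its symbol. With 4 arrays per genotype, small differences of scattered or dim members cannot be called.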
